A study of Mus musculus with 36 samples.

Results

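The comparison described here set primary mouse prostate organoids that carried FOXA1 FE255del against organoids that carried wild-type FOXA1 (WT), both at day 11. It uses 6 of the 36 libraries of the study, 3 per group, taken by their labels. The comparison itself was chosen with earlier results of these data known. Organoids are small epithelial cultures grown from dissociated tissue, here from mouse prostate. Each construct was carried in a pCW vector, whose FOXA1-2A-DsRED cassette is switched on by doxycycline, given at 500 ng/mL, and cells positive for DsRED were sorted before seeding. Both groups therefore carried a FOXA1 transgene on top of the endogenous gene, and neither is an unmodified culture. FE255del is a small in-frame deletion in a wing of the DNA-binding forkhead domain of FOXA1, a region that recurs among FOXA1 mutations of prostate cancer. The labels describe 3 parallel seedings of sorted cells from each infected construct, so the spread between replicates is that between separately grown cultures of 1 infected population. An effect of the construct and a difference between the infected populations cannot be told apart at day 11 alone. For that reason the same lines at day 0 and day 1 (3 libraries per line and day) were compared in the same model. The names of the deposited tables mark day 0 as without doxycycline, while the treatment text of the labels names the drug for every sample. Day 11 organoids with the vector lacking FOXA1 (EV, named empty vehicle in the labels) or with FOXA1 R219S, 3 libraries each, are given as levels only.

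FOXA1 is a pioneer transcription factor: its forkhead domain resembles a linker histone and binds sites in closed chromatin, which other factors, among them the androgen receptor, can then use. In the prostate it is expressed in luminal and basal epithelium and takes part in gland formation and in the secretory programme. In the endoderm more broadly, forkhead factors of the same family open regulatory regions in liver, lung, pancreas and gut.

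The 6 libraries held between 64742732 and 83847121 counts each and detected 20515 to 21241 genes. Levels are given as CPM, a gene's counts scaled to the library's total, after TMM scaling, a correction for composition between libraries. Log2 profiles correlated at 0.9924 to 0.9949 within a group and at 0.9854 to 0.9888 between the groups (Pearson r across genes, which are not independent replicates). Mitochondrial genes took 2.20% to 3.36% of the counts. Of the genes that mark the epithelial layers, the summed basal markers (Krt5, Krt14 and Trp63) lay at 3850 to 4780 CPM in WT and 4170 to 4240 CPM in FE255del, and the summed luminal markers (Krt8, Krt18, Krt19, Cd24a and Epcam) at 4640 to 4970 and 4310 to 4680 CPM. Both groups thus expressed markers of basal and luminal epithelium, which are not particular to the prostate. Of 18176 genes tested, 3213 (17.7%) passed edgeR's quasi-likelihood test at a Benjamini-Hochberg adjusted p of 0.05. Of these, 1773 (9.75%) were higher in FE255del and 1440 (7.92%) lower. All 3 FE255del libraries lay above all 3 WT libraries for 2609 genes (14.4%) and below them for 2195 (12.1%), whether or not the test was passed. A difference of at least 2-fold was reached by 372 of the higher and 298 of the lower genes, and one of at least 16-fold by 50 and 35. With the 6 libraries fitted alone, which also left 15946 genes in the test, 896 genes were higher and 810 lower. The shares of 9.75% and 7.92% are those against which the counts of each gene list at day 11 should be read.

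Foxa1 itself (chromosome 12, 57540628 to 57546916, mm10) was read at 280, 273 and 253 CPM in WT and at 302, 316 and 266 CPM in FE255del. The ranges overlapped, and the log2 fold change of 0.14 (SE 0.06) did not pass (adjusted p = 0.124). EV organoids held 217 to 241 CPM and R219S organoids 242 to 301 CPM. Reads from the endogenous gene and from the vector cannot be separated in a gene count, so these values do not measure the amount of either protein. At day 1, Foxa1 was lower in FE255del (log2 fold change -0.37, adjusted p = 3.86e-06). Foxa2, the liver and lung relative, had at most 0.0297 CPM in any of the 6 libraries.

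Among the 12 largest differences toward FE255del were genes best known from stomach, gut and liver. Cyp4a12a, a fatty acid hydroxylase, was at 0.0229, 0.0446 and 0.0288 CPM in WT and at 14.0, 16.6 and 11.7 CPM in FE255del. All FE255del libraries lay far above all WT libraries, a 428-fold difference (log2 fold change 8.74, SE 0.40, adjusted p = 8.45e-16). Its near copy Cyp4a12b, whose reads may be shared with it, had no count in WT and 0.223 to 0.421 CPM in FE255del. Tff2, a trefoil peptide of gastric mucus, was at 0.344, 0.178 and 0.231 CPM in WT and at 17.9, 22.4 and 17 CPM in FE255del (log2 fold change 6.20, SE 0.44, adjusted p = 5.13e-11). The vanins, enzymes that release the vitamin pantothenate, were higher as neighbours on chromosome 10. Vnn3 stood at 2.82, 3.21 and 2.87 CPM in WT and 82.1, 84.4 and 87.9 CPM in FE255del (log2 fold change 4.84, SE 0.17). Vnn1 stood at 2.4, 2.81 and 2.58 CPM in WT and 36.8, 33.6 and 47.0 CPM in FE255del (3.92, SE 0.15). EV organoids, without a FOXA1 insert, held 1.11 to 2.05 CPM of Vnn3 and 1.30 to 1.72 CPM of Vnn1, so FE255del lay above both other levels. Hnf4a, a nuclear receptor of liver and gut epithelium, was at 0.252, 0.208 and 0.403 CPM in WT and at 3.81, 4.49 and 4.73 CPM in FE255del (3.91, SE 0.36, adjusted p = 3.17e-10). Its level remained low beside the keratins.

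Other genes of the same size class fell into 2 patterns when EV was set beside them. Cckar, the receptor for the gut hormone cholecystokinin, had no count in any EV library, 2.18, 1.23 and 1.5 CPM in WT and 26.7, 38.3 and 23.9 CPM in FE255del (4.17, SE 0.26). Sytl2, a vesicle tethering protein, likewise went from at most 0.0265 CPM in EV to 8.90, 7.42 and 8.01 CPM in WT and 58.9, 73.7 and 59.0 CPM in FE255del (2.98, SE 0.16). For these genes WT was already above EV and FE255del was above WT. Spink5, a protease inhibitor of stratified epithelia, showed the other order: 118, 94.5 and 110 CPM in EV, 6.89, 4.91 and 9.21 CPM in WT and 115, 125 and 120 CPM in FE255del (4.10, SE 0.14). There the FE255del libraries overlapped the EV range and WT was the lowest, with R219S at 44.6 to 60.4 CPM. The exchanger genes Slc9a4 and Slc9a2 were between these patterns, at 0.526 and 0.580 CPM on average in WT, 3.40 and 2.08 CPM in EV and 7.32 and 5.80 CPM in FE255del. The cannabinoid receptor gene Cnr1 (3.81, SE 0.32) and Ugt2b35 (2.92, SE 0.37), a glucuronosyltransferase from a family of similar copies, complete the 12 largest.

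**Figure D1:**
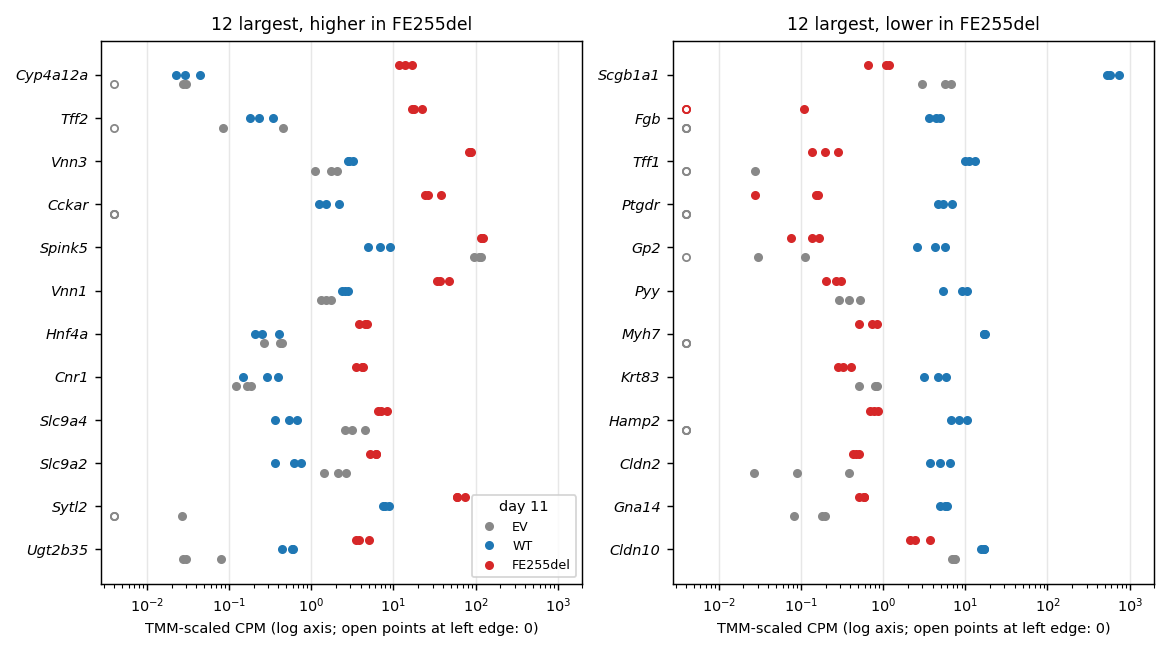
TMM-scaled CPM on a log axis in each day 11 library for the 12 largest higher and 12 largest lower genes, with EV in grey, WT in blue and FE255del in red, and open points at the left edge for libraries with no count. Scgb1a1 separates the groups most, at 534 to 732 CPM in WT and 0.647 to 1.17 CPM in FE255del.

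On the other side, several secretory products abundant or present in WT were near their floor in FE255del. Scgb1a1, uteroglobin, the main secretory protein of airway club cells, was at 578, 534 and 732 CPM in WT and at 1.07, 0.647 and 1.17 CPM in FE255del. No library came near the other group, and the mean was 637-fold lower in FE255del (log2 fold change -9.32, SE 0.22, adjusted p = 2.13e-20). EV organoids had 6.75, 2.98 and 5.61 CPM and R219S organoids 0.428 to 0.577 CPM, so the high level belonged to WT among the 4 constructs. Tff1, the trefoil peptide next to Tff2 on chromosome 17, was at 11.1, 9.89 and 13.1 CPM in WT and 0.281, 0.135 and 0.195 CPM in FE255del (-5.78, SE 0.34, adjusted p = 8.03e-14). In R219S it was at 14.7 to 17.1 CPM, and in EV at no more than 0.0278 CPM. Pyy, a gut hormone, was at 10.5, 5.32 and 9.04 CPM in WT and 0.204, 0.269 and 0.307 CPM in FE255del (-4.99, SE 0.39), and R219S again held a high level, 11.5 to 19.9 CPM.

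Several other genes were far higher in WT than in FE255del, and some had no count in EV. Hamp2, a hepcidin copy, stood at 8.46, 6.74 and 10.5 CPM in WT, at 0.689, 0.876 and 0.781 CPM in FE255del and at 0 in EV and R219S (-3.45, SE 0.25). The cardiac and slow muscle myosin gene Myh7 was at 16.9, 17.1 and 16.8 CPM in WT and 0.727, 0.849 and 0.502 CPM in FE255del (-4.61, SE 0.20), also with no count in EV and R219S. Ptgdr, a prostaglandin receptor, was at 6.83, 4.72 and 5.39 CPM in WT and at most 0.162 CPM in FE255del (-5.59, SE 0.44). Fgb, the fibrinogen beta chain, was at 4.45, 3.6 and 4.87 CPM in WT and had counts in 1 of 3 FE255del libraries (-6.85, SE 0.68, adjusted p = 6.53e-06). With DESeq2 its adjusted p was 0.588, within a range of 2.19e-07 to 0.588 over 12 settings, and it was the only gene of the 24 largest differences whose call was lost under any setting. The zymogen granule glycoprotein Gp2 (-5.05, SE 0.51), the hair keratin Krt83 (-3.75, SE 0.25) and the G protein subunit Gna14 (-3.29, SE 0.21) were lower as well. The tight junction genes Cldn2 and Cldn10 went from 3.70, 6.57 and 4.97 CPM to 0.510, 0.431 and 0.474 CPM and from 17, 17.1 and 15.8 CPM to 2.12, 2.42 and 3.74 CPM. Of 10 claudins tested, 3 were higher (Cldn8 0.71, Cldn12 0.19 and Cldn23 0.28) and 3 lower (also Cldn1, -0.38). Cldn23 and Cldn1 each lost their call under 5 of 13 settings, with adjusted p up to 0.136 and 0.421.

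The differences of day 11 were compared with those of the same lines before and just after induction. At day 0, 4878 genes (26.8%) differed, 2846 (15.7%) higher and 2032 (11.2%) lower in FE255del, and at day 1, 7573 (41.7%), with 3956 (21.8%) higher and 3617 (19.9%) lower. The day 0 split moved with the scaling: total-count scaling gave 44.9% higher among the called genes in place of 58.3%. Of the 1773 genes higher at day 11, 628 were already higher at day 0 and 1059 at day 1, and 159 had been lower at day 0. Of the 1440 lower genes, 443 were lower at day 0 and 882 at day 1, and 182 had been higher at day 0. The change itself was tested as the day 11 difference minus the day 0 difference, which 2599 genes (14.3%) passed, 1217 (6.7%) upward and 1382 (7.6%) downward. Among the day 11 calls the difference had grown for 649 higher and 582 lower genes, and the change since day 0 did not pass for 1110 and 831.

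Gene by gene, the large differences mostly arose after day 0. Scgb1a1 had 3.11 CPM in WT and 1.01 CPM in FE255del at day 0 (log2 fold change -1.62), then -5.14 at day 1 and -9.32 at day 11. Vnn3 went from 0.75 at day 0 to 4 and 4.84, and Vnn1 from 0.16 to 4.21 and 3.92. Hnf4a (-0.15, 2.96 and 3.91) followed the same course. For Cldn10 the difference was largest at day 1, with -0.15, -3.13 and -2.59. Mme, the peptidase neprilysin, and Adcyap1r1, the receptor for the peptide PACAP, turned: they were lower in FE255del at day 0 (-2.19 and -3.31) and higher at day 11 (2.52 and 2.35). Adcyap1r1 stood on 42 counts in WT and 4 in FE255del at day 0, over 3 libraries each. Wnt5a, a secreted Wnt ligand, and Vim, the intermediate filament of mesenchymal cells, had day 0 differences as large as at day 11: 2.42 and 2.23 for Wnt5a, -1.84 and -1.93 for Vim. The change since day 0 did not pass for either (adjusted p = 0.69 and 0.90). Myh7 had 10 counts in WT and none in FE255del at day 0, too few for a fold, and at day 1 its log2 fold change was -4.62, close to the -4.61 of day 11. Fgb, Hamp2 and Ugt2b35 had no count in either line at day 0, so their change since then could not be fitted.

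**Figure D2:**
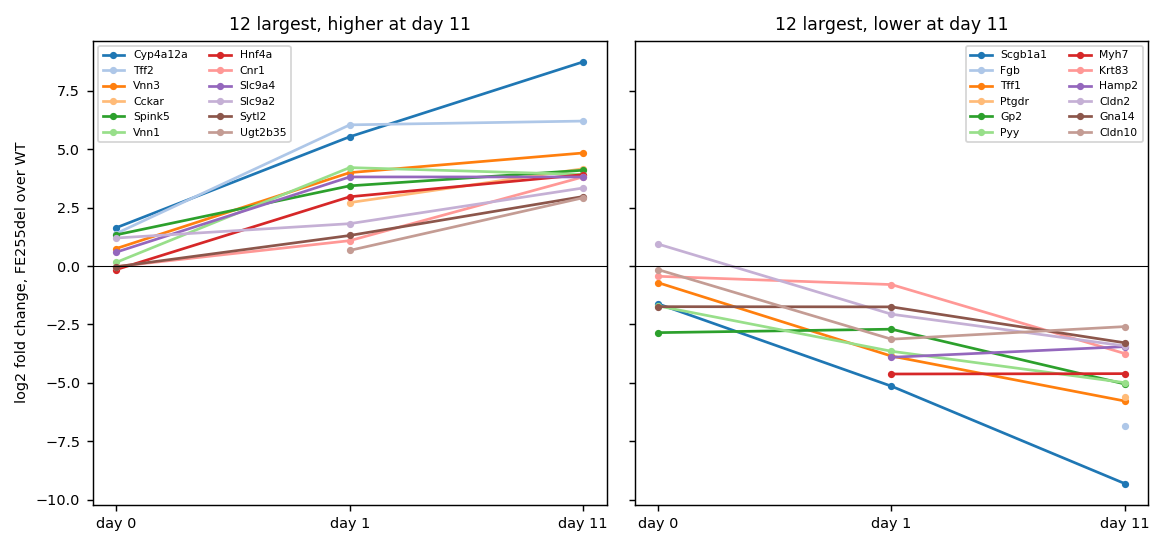
Log2 fold change of FE255del over WT at days 0, 1 and 11 for the 12 largest higher (left) and 12 largest lower genes (right) of day 11, 3 libraries per line and day, with points left out where a line had no count or neither had more than 3. Vnn3 moves from 0.75 to 4.84 and Scgb1a1 from -1.62 to -9.32.

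Interferon-stimulated genes were higher in FE255del. Interferons signal through receptor-bound kinases to transcription factors that bind the interferon-stimulated response element in front of antiviral genes. The windows printed here are the bases before the start of 4 genes of this group that were higher in FE255del, taken from RefSeq on GRCm38.p6, each 5′ to 3′ on the strand of the gene. They are shown because the element, searched on both strands as GAAA, then 2 bases of any kind, then GAAA, recurs in them, and its matches are in capitals.
Ifit1, chr19:34640639-34640888, plus strand: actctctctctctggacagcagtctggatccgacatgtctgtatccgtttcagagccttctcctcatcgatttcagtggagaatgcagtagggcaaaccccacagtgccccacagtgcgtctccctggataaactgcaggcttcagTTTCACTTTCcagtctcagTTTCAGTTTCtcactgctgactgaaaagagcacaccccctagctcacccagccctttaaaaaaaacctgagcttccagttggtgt
Ifit3, chr19:34583279-34583528, plus strand: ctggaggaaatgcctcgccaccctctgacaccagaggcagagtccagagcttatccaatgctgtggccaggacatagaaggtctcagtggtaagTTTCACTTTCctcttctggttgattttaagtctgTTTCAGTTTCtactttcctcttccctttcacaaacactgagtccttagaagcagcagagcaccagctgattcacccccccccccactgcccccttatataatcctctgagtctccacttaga
Isg15, chr4:156200819-156201068, minus strand: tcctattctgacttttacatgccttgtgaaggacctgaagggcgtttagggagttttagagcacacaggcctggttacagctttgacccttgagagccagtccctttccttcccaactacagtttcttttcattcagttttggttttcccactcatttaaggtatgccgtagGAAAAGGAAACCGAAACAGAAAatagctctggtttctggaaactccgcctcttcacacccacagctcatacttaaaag
Oas3, chr5:120777660-120777909, minus strand: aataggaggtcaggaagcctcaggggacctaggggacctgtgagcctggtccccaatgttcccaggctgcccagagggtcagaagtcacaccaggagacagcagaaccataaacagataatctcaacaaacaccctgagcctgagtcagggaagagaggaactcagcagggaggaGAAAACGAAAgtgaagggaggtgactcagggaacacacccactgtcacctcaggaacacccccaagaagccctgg
Of 22 interferon genes higher at day 11 that had a window, 10 (45.5%) held a match in those 250 bases, as did 15 of all 31 list genes with a window (48.4%), beside 978 of 32851 windows of all genes (2.98%). A match is a description of the letters and not a measured binding site.

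The interferon list had 42 genes, all tested. Of these, 32 were higher in FE255del and 1 (Isg20, -0.33) lower, with a median log2 fold change of 0.67, beside 9.75% higher and a median of 0.001 over all genes tested. Ifit1, which binds foreign RNA caps, stood at 19.1, 20.3 and 20.6 CPM in WT and 54.4, 36.4 and 55.5 CPM in FE255del (1.29, SE 0.19). The groups did not overlap, and FE255del replicate 2 was the lowest of its group. Isg15, a ubiquitin-like modifier, was at 3.74, 5.35 and 5.33 CPM in WT and 16.8, 7.18 and 15.0 CPM in FE255del (1.44, SE 0.26), and Ifi27l2a at 2.77, 2.69 and 2.61 CPM and 15.1, 4.92 and 17.5 CPM (2.22, SE 0.39). Both also separated the groups, with FE255del replicate 2 the lowest of its group by a wide margin. The oligoadenylate synthetases Oas3 (1.56) and Oas1a (0.62), the related gene Oasl1 (1.69), the deconjugase Usp18 (1.19), the chaperone Rtp4 (1.27), tetherin (Bst2, 0.77) and the factors Irf7 (0.88) and Irf1 (0.25) were higher too. With the 6 libraries alone Oas3 and Irf7 did not pass, nor did Irf7 without FE255del replicate 1, with adjusted p up to 0.0761 for Oas3 and 0.104 for Irf7 over 13 settings. Oas1a shares sequence with close copies among which reads may be split.

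The size of the interferon difference varied between the FE255del libraries. Relative to the WT mean, the median of the 42 genes was 0.97, 0.17 and 0.81 on the log2(CPM + 0.1) scale in FE255del replicates 1 to 3, and -0.08 to 0.10 in the WT libraries. Replicate 2 therefore lay just above the WT range, while 30 of its 42 genes were above the WT mean. Without it 36 genes were called higher (median 0.91), and without replicate 1 only 20 (median 0.50). Leaving out WT replicate 1 or FE255del replicate 3 gave 21, and the 6 libraries fitted alone gave 16. EV and R219S were higher still, with library medians of 1.55 to 1.97 and 1.37 to 1.85. WT thus had the lowest level of the 4 constructs at day 11 and FE255del an intermediate one. Isg15 showed the same order, with 47.2 to 60.9 CPM in EV, whereas Ifit1 in EV (44.5 to 51.3 CPM) overlapped FE255del. At day 0 the list had a median of -0.27, with 1 gene higher and 9 lower in FE255del, beside 15.7% and 11.2% of all genes. At day 1 the median was -0.10, with 7 higher and 11 lower, beside 21.8% and 19.9% of all genes. The change since day 0 passed for 29 genes, all toward FE255del, beside 6.7% upward over all genes.

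**Figure D3:**
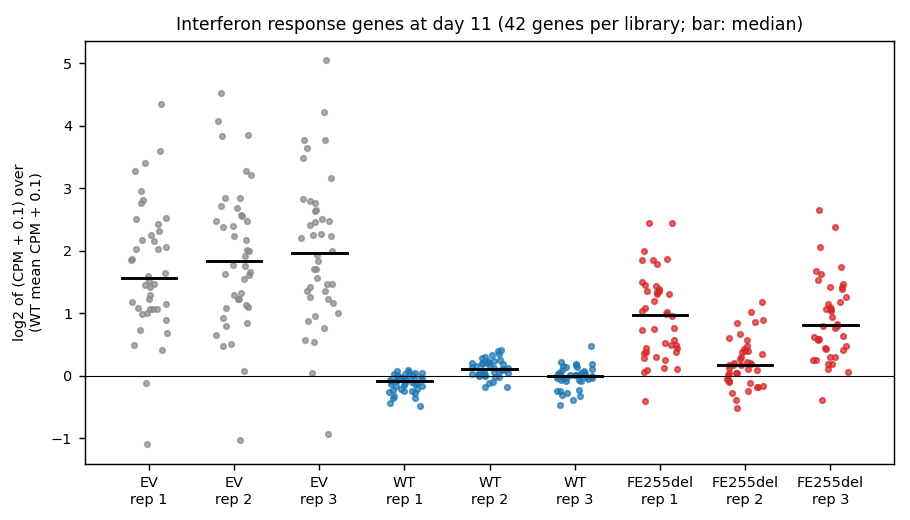
Each point is 1 of 42 interferon genes in 1 day 11 library, as the log2 ratio of its CPM (plus 0.1) to the WT mean (plus 0.1), and bars mark the library medians. The WT medians lie between -0.08 and 0.10, the FE255del medians at 0.97, 0.17 and 0.81, and the EV medians between 1.55 and 1.97.

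Antigen presentation, inflammation and chemokines gave a mixed picture. Of 19 genes of MHC class I presentation, 8 were higher and none lower (median 0.14), and all 8 are in peptide processing and loading: the immunoproteasome subunits Psmb8 (2.93, 4 and 3.21 CPM in WT, 5.27, 5.39 and 5.47 CPM in FE255del) and Psmb10 (0.37), the activators Psme1 (0.18) and Psme2 (0.27) and the loading factor Tapbp (0.15) among them. Without WT replicate 1 the count was 3, and with the 6 libraries alone 4. Of 31 genes of the NF-kB response, 8 were higher and 3 lower. Ptgs2, the inducible prostaglandin synthase, was at 55.4, 37.9 and 64.5 CPM in WT and 102.8, 103.6 and 118 CPM in FE255del (1.04, SE 0.11), a difference of the same size at day 0 (1.06). Icam1 was lower (-0.36). Of 25 chemokines and cytokines, 8 were higher and 3 lower, with 4 higher without WT replicate 2 or FE255del replicate 3 and 3 with the 6 libraries alone. Cxcl17, a mucosal chemokine, was at 31.0, 33.0 and 33.0 CPM in WT and 66.3, 77.7 and 76.5 CPM in FE255del (1.19, SE 0.15), having been lower at day 0 (-1.23). Cxcl15, a lung chemokine, was also higher (0.97), as were the chemokines Cxcl2 (1.39) and Cxcl1 (0.27). The neutrophil chemokine Cxcl5 was lower, from 322, 306 and 316 CPM to 149, 164 and 258 CPM (-0.72). That call was lost with the 6 libraries alone (adjusted p = 0.0886, range 2.99e-06 to 0.0886 over 13 settings). Nos2, the inducible nitric oxide synthase, was not on a list and was picked after its values were seen: it stood at 3.66, 3.08 and 5 CPM in WT and 19.4, 18.7 and 20.3 CPM in FE255del (2.32, SE 0.18), and EV held 23.7 to 34.5 CPM.

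Mucosal secretory genes, which code for mucins, trefoil peptides, lectins and other proteins of gut and airway surfaces, went apart strongly and in both directions. Of 15 tested, 8 were higher and 2 lower, with a median of 0.92. Clca1, a secreted protease of goblet cells, was among the most abundant: 233, 189 and 213 CPM in WT and 753, 902 and 769 CPM in FE255del (1.93, SE 0.08, adjusted p = 3.82e-18), against 3.98 to 4.19 CPM in EV. Its WT and FE255del ranges were far apart, and both were above EV. Muc20, a membrane mucin, was at 3.12, 5.70 and 4.09 CPM in WT and 6.98, 8.84 and 8.52 CPM in FE255del (0.92). The gastric peptide Gkn3 was at 0.0229 to 0.202 CPM in WT and at 0.817 to 1.31 CPM in FE255del (3.46), but it did not pass with DESeq2 (adjusted p = 0.481, range 0.000118 to 0.481 over 12 settings). Against this direction, Retnlb, a resistin-like protein secreted by goblet cells, stood at 2.46, 1.87 and 2.39 CPM in WT and at 0.0255 to 0.0279 CPM in FE255del (-6.30, SE 0.37), and Tff1 was lower as given above. Under the stricter filter on low counts, which drops members with few counts, 4 were higher and the median was 0.18.

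Some of these genes lie side by side, and 4 neighbourhoods were looked at after their values were seen. The 3 trefoil genes lie within chromosome 17, 31125306 to 31165277. Tff3 stood at 0.0458, 0.0595 and 0.259 CPM in WT and 1.43, 1.54 and 1.03 CPM in FE255del (3.47, SE 0.75), Tff2 was higher (6.20) and the adjacent Tff1 lower (-5.78). Neighbouring genes here went opposite ways. On chromosome 1, between 40074079 and 40769273, the decoy receptor Il1r2 stood at 5.39, 5.41 and 5.52 CPM in WT and 30.4, 35.9 and 29.2 CPM in FE255del (2.55, SE 0.14). The receptor for interleukin 33, Il1rl1 (4.58, at most 0.0595 CPM in WT), Il18rap (1.46), Slc9a4 (3.81) and Slc9a2 (3.34) in the same stretch were higher, Il1r1 was higher by little (0.17, lost under 2 of 13 settings), and Il1rl2 (0.06) and Il18r1 (0.45) did not pass. In the chloride channel regulator cluster on chromosome 3, Clca3b (2.4), Clca3a2 (0.97) and Clca1 (1.93) were higher, while Clca3a1 (0.63) and Clca2 (0.27) did not pass. The Clca3 copies resemble each other, and how reads were split between them is not given in the sources used here.

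**Figure D4:**
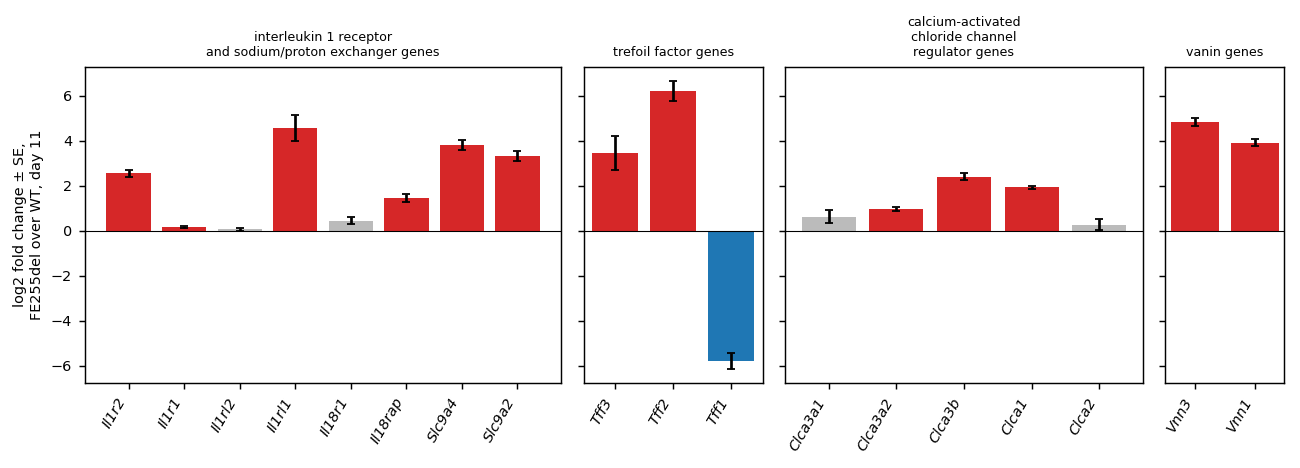
Log2 fold change of FE255del over WT at day 11, with its SE, for neighbouring genes in chromosome order in 4 regions; red bars are higher and blue bars lower at an adjusted p of 0.05, grey bars did not pass, and Clca4a, with almost no counts, is not drawn. Tff3 (3.47) and Tff2 (6.20) are higher and the adjacent Tff1 (-5.78) is lower.

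Genes of the prostate itself moved by smaller amounts. Of 22 secretory and androgen-related genes, 8 were higher and 5 lower, with a median of -0.02, and with the 6 libraries alone 4 and 3. Without WT replicate 1, 3 were lower. Tmprss2, a membrane protease of luminal cells that is regulated by androgen, stood at 243, 236 and 241 CPM in WT and 370, 353 and 357 CPM in FE255del (0.58, SE 0.05, adjusted p = 5.80e-11), and the transporter Abcc4 (0.58) and the zinc finger factor Zbtb16 (1.15) were higher with it. The solute carrier Slc45a3, also regulated by androgen, was lower, from 114, 115 and 112 CPM to 74.6, 75.7 and 74.8 CPM (-0.60, SE 0.05). Fkbp5, a further androgen target, did not pass (-0.07, adjusted p = 0.445). Pbsn, the probasin gene, was too low to be tested. Of 21 luminal genes, 8 were higher and 3 lower. The surface enzyme Cd38 stood at 14.1, 15.8 and 13.3 CPM in WT and 40.7, 48.1 and 46.7 CPM in FE255del (1.65, SE 0.07), while the keratins Krt18 (656, 696 and 702 CPM against 513, 544 and 563 CPM, -0.34) and Krt8 (-0.29) were lower. Krt8 had been higher in FE255del at day 0 (0.63). Its day 11 call was lost with the 6 libraries alone (adjusted p = 0.0802, range 6.47e-05 to 0.0802 over 13 settings). The progenitor marker Prom1 (0.72), the surface antigen Ly6a (0.38) and the epithelial factor Elf3 (0.34) were higher.

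Of 24 basal genes, 2 were higher and 4 lower, with a median of -0.02, and with the 6 libraries alone none and 2. Krt5 (0.02), Krt14 (-0.13) and the basal factor Trp63 (0.04) did not pass, and the cytokine Il33 was lower, from 270, 316 and 281 CPM to 169, 184 and 193 CPM (-0.67, SE 0.06). Squamous differentiation genes leaned lower in FE255del, with 13 of 33 lower, 3 higher and a median of -0.43. This rested largely on WT replicate 3, in which 30 of the 33 genes were above the WT mean: Krt13, a keratin of stratified mucosa, was at 1.62, 1.19 and 6.89 CPM in WT and 1.35, 1.39 and 1.28 CPM in FE255del, and Krt10, of cornifying epithelium, at 3.07, 3.87 and 12.6 CPM against 2.74, 3.14 and 2.09 CPM. Without that library 4 genes were lower and the median was -0.08, with the 6 libraries alone 2 were lower, and Krt10 and Krt13 no longer passed. Krt6a (251, 265 and 338 CPM against 179, 175 and 159 CPM, -0.73) and Krtdap (-2.30) did not lose their calls under any setting run. Krt4 (0.67), of mucosal epithelium, and the desmosomal cadherin Dsc3 (0.52) were higher. EV organoids had higher squamous levels than either group, with library medians of 0.80 to 0.91 above the WT mean.

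Lineage genes outside the prostate went gene by gene. In the airway list of 11, the water channel Aqp5 was lower with Scgb1a1 (40.1, 36.9 and 36.2 CPM in WT, 11.1, 10.5 and 12.9 CPM in FE255del, -1.71), whereas the club cell cytochrome Cyp2f2 was higher (57.2, 58.0 and 56.2 CPM against 138, 107 and 181 CPM, 1.31), as was Foxj1, the factor of ciliated cells (0.58). Among 10 urothelial genes the uroplakin Upk1b was lower (129, 132 and 131 CPM against 58.8, 69.0 and 60.2 CPM, -1.06). Upk3a stood at 654, 657 and 671 CPM in WT and 865, 1019.8 and 918 CPM in FE255del (0.50), and its call was lost with DESeq2 and without FE255del replicate 2 (adjusted p from 0.000752 to 0.44 over 13 settings). Both uroplakins were far above their EV levels, at most 1.29 and 2.67 CPM. Of 13 foregut and gut factors, Hnf4a and Cdx2 (0.35) were higher and Ttr (-1.69) lower, but Cdx2 lost its call under 4 of 13 settings and Ttr under 7 of 12. Of 17 forkhead genes, Foxj1 and Foxp1 (0.12) were higher and Foxc1 (-0.18) lower, shares near those of all genes. Foxp1 lost its call under 6 of 13 settings and Foxc1 under 3, and leaving out 1 library gave 1 to 4 higher (4 without WT replicate 3). Of 17 Hox genes, 3 were lower and none higher, with 1 lower with the 6 libraries alone or without FE255del replicate 2 and 5 without FE255del replicate 1. None of 7 neuroendocrine genes passed in either direction. The summed level of 4 neuroendocrine markers, 2 of them without a count, was at 0.172 to 0.268 CPM in WT and 0.195 to 0.549 CPM in FE255del.

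The cell cycle differed far less at day 11 than before. At day 0, 42 of 48 genes of the G2 and M phases and 33 of 39 of the S phase were higher in FE255del, and at day 1, 45 and 33, beside 15.7% and 21.8% of all genes on those days. At day 11 the numbers were 5 and 1, near or below the 9.75% of all genes, with none and 2 lower (no S phase gene lower with the 6 libraries alone), and Mki67 did not pass (-0.01, adjusted p = 0.946). The change since day 0 passed downward for 9 G2 and M genes and for 21 S phase genes, and upward for none in either list, beside 7.6% downward over all genes. The 5 higher G2 and M genes were none without FE255del replicate 2 and 9 without replicate 3. The 5 members higher at day 11 include Bub1b (0.32) and Aurka (0.34), kinases of mitosis. Targets of p53 leaned higher, 12 of 27 with 1 lower (median 0.14), among them Plk2 (220, 214 and 223 CPM in WT, 290, 301 and 291 CPM in FE255del, 0.43), the receptor gene Eda2r (0.61), cyclin G (Ccng1, 0.33) and Bax (0.32). The lower one was Fas (-0.47). At day 0 the list had 12 higher and 5 lower, beside 15.7% and 11.2% of all genes. The change since day 0 passed upward for 6 p53 targets and downward for 2, beside 6.7% and 7.6% of all genes.

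Of 34 genes of cholesterol and fatty acid synthesis, 12 were higher and none lower (median 0.11), led by the pathway enzyme Mvd (27.8, 27.8 and 28.0 CPM in WT, 39.5, 40.3 and 36.3 CPM in FE255del, 0.47) and the sterol sensor partner Insig1 (0.57). With the 6 libraries alone, and without FE255del replicate 2, 7 were higher. At day 0, 15 had been higher, beside 15.7% of all genes. Of 30 genes of glutathione metabolism and the NRF2 response, 12 were higher and 3 lower (median 0.19), including the glutathione transferases Gsta3 (4.44, 4.37 and 4.97 CPM against 8.19, 9.83 and 10.6 CPM, 1.06) and Gstm1 (0.80). Of 52 cytosolic ribosomal proteins, 13 were higher and none lower (median 0.14). That count ran from 3 without WT replicate 1 to 26 without FE255del replicate 1. Of 53 genes of oxidative phosphorylation, 5 were higher and none lower (1 higher without FE255del replicate 2), and of 33 genes of glycolysis and hypoxia response 4 were higher and 3 lower (2 to 11 higher on leaving out 1 library, the most without FE255del replicate 3). The shares of higher genes in both lists are near the 9.75% of all genes. Of 24 genes of the unfolded protein response, 5 were higher and 6 lower, and 2 to 6 were higher on leaving out 1 library (2 without WT replicate 1 or 2 or FE255del replicate 2).

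Ligands and feedback genes of growth factor pathways diverged within each pathway. Of 30 BMP and TGF-beta genes, 4 were higher and 11 lower (median -0.14), with 2 higher without WT replicate 1 or FE255del replicate 3, 7 higher without WT replicate 3, and 7 lower with the 6 libraries alone. The ligands went opposite ways: Bmp2 stood at 2.25, 2.26 and 2.10 CPM in WT and 8.45, 7.91 and 11.2 CPM in FE255del (2.06, SE 0.17), and Bmp4 at 4.57, 4.06 and 4.54 CPM against 1.08, 1.35 and 1.16 CPM (-1.88, SE 0.24). Tgfb2 (-0.40), the activin antagonist Fst (-0.62) and the response gene Id2 (-0.49) were lower, and Id4 was higher (0.59). Of 34 Wnt pathway genes, 6 were higher and 5 lower, and with the 6 libraries alone 6 and 3. Wnt5a stood at 2.46, 2.69 and 2.26 CPM in WT and 10.4, 11 and 13.3 CPM in FE255del. Lef1 (2.16), Fzd10 (0.93) and the secreted antagonists Wif1 (0.84) and Notum (0.66) were higher, while the target gene Axin2 was lower (-0.27). Of 20 genes of the EGF family, 3 were higher and 5 lower (1 and 3 with the 6 libraries alone, and 1 higher without WT replicate 1 or 2 or FE255del replicate 2 or 3), with the receptor's response genes Etv4 (-0.41) and Etv5 (-0.45) and the ligand Areg (-0.46) lower and the ligand Hbegf (0.41) higher. Among 24 targets of YAP and TEAD, 3 were higher and 7 lower, among 16 Notch genes 2 and 3, and among 24 AP-1 and immediate early genes 2 and 4, beside 9.75% and 7.92% of all genes. Without WT replicate 2, 1 YAP target and 1 Notch gene were higher, and without WT replicate 3, 6 AP-1 genes. With the 6 libraries alone, 1 YAP target was higher and 4 were lower, and no AP-1 gene was higher. Of 29 ion and water transport genes, 5 were higher, including the chloride channel Cftr (4.79, 6.14 and 4.61 CPM against 8.03, 11.1 and 11.3 CPM, 0.97) and the sodium channel subunit Scnn1g (0.84), and 7 lower, including the potassium channel genes Kcne3 (-1.28) and Kcnj15 (-0.75).

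Matrix genes were lower more often than higher, with 6 of 23 lower and 3 higher (median -0.37), and 1 higher with the 6 libraries alone. Col4a1, a basement membrane collagen, stood at 247, 239 and 271 CPM in WT and 146, 165 and 164 CPM in FE255del (-0.67, SE 0.05), and Col4a2 was lower (-0.30). Col8a1 was higher, from 11.7, 9.91 and 13.5 CPM to 53.1, 66.6 and 63.6 CPM (2.38, SE 0.12). Col10a1 had 2.10 to 3.03 CPM in WT and at most 0.0279 CPM in FE255del. Of 24 genes of mesenchymal transition, 5 were higher (1 without WT replicate 2 or FE255del replicate 3, 2 with the 6 libraries alone) and 3 lower, the lower ones being Vim (10.3, 9.97 and 9.99 CPM against 3.11, 2.67 and 2.15 CPM), Acta2 (-1.48) and Fn1 (-1.18). Cdh1 did not pass (-0.02). The summed level of 10 fibroblast and muscle markers, of which 1 had no count, was 41.4 to 43.7 CPM in WT and 14.6 to 20.5 CPM in FE255del. Most of it was Acta2 (27.2 to 29.3 against 8.03 to 13.3 CPM) and Dcn (11.5 to 14.1 against 5.41 to 6.09 CPM). The other markers held at most 0.994 CPM in any library. Col1a1 (165 and 109 counts) and Col3a1 (36 and 8) were lower among them, whereas Pdgfra (99 and 99) and Myh11 (48 and 48) were equal. The part of this sum in the matrix differences was not tested. In such bulk libraries fewer cells of a type and less RNA per cell cannot be told apart. The 6 immune markers, 2 without a count, summed to 4.88 to 6.50 CPM in WT and 10.5 to 11.3 CPM in FE255del. Nearly all of this was Cd68 (652 and 1630 counts) and Csf1r (633 and 789), while the leukocyte gene Ptprc had 8 and 14 counts. Among 8 immune genes tested, Cd68 (1.32) and the innate receptor gene Cd14 (147, 156 and 167 CPM against 231, 258 and 318 CPM, 0.78) were called. The 4 endothelial markers summed to 3.07 to 3.43 and 6.19 to 7.17 CPM, with Vwf (1.56) called under every setting run and Kdr (2.39) not. Vwf had 324 and 965 counts and Kdr 18 and 96, against 369 and 400 for Pecam1 and 2 and 0 for Cdh5. The immune and endothelial sums are small beside the epithelial markers, and their part in other differences was not tested.

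**Figure D5:**
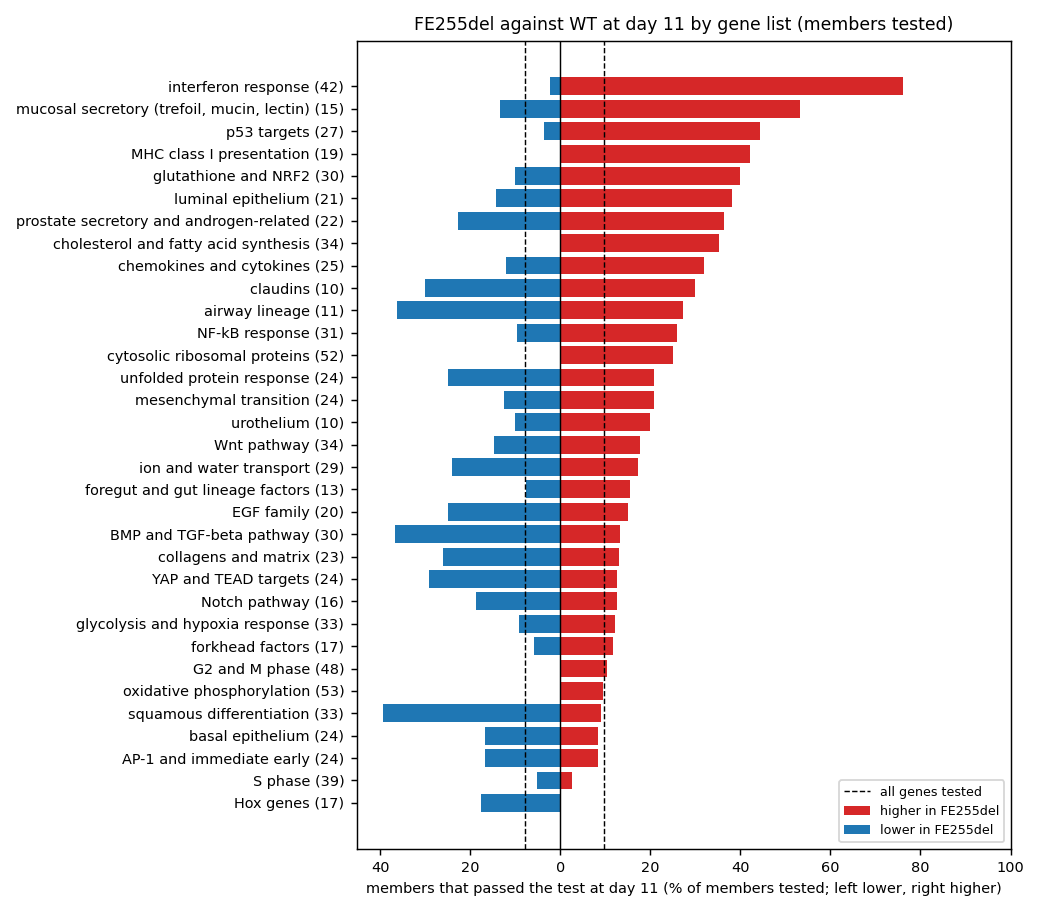
Share of tested members of each gene list with at least 10 members that were higher (red, right) or lower (blue, left) in FE255del at day 11, with dashed lines at the shares of all genes tested, 9.75% and 7.92%. The interferon list has 32 of 42 members higher, and the squamous list has 13 of 33 lower, a count that drops to 4 without WT replicate 3.

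Forkhead sequence was looked for in the largest differences. The heptamer TGTTTAC, searched on both strands of the 250 bases before the start, was in 1040 of 32851 windows (3.17%). Of the 12 largest higher genes 4 had a window, and 1 of them, Ugt2b35, held a match. Its window, from RefSeq on GRCm38.p6 and 5′ to 3′ on the gene's strand, is printed with the match in capitals.
Ugt2b35, chr5:87000610-87000859, plus strand: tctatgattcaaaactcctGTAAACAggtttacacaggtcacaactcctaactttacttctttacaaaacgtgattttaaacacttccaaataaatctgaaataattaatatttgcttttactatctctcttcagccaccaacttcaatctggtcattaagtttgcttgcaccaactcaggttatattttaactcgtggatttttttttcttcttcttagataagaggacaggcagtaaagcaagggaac
Of the 9 largest lower genes with a window, none held a match. These letters say nothing about binding elsewhere, and FOXA1 sites far from starts were not examined.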

How the data were processed

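Polyadenylated RNA was sequenced from stranded libraries, per the labels' protocols, and the submitters' processing notes name STAR 2.4.2a, featureCounts 1.4.3 and mm10, whose roles, strand setting and annotation release are not given in the sources used here. The authors deposited a separate table for each library with an expected count for each of 45232 genes. Of all values 298311 were not whole, by 3.0e-09 at most, and were rounded. Low counts are mostly even (68.9% to 71.2% of values from 1 to 20 in the 6 compared libraries), so both reads of a pair appear to be counted separately and floors from counts are too low. Of the identifiers, 44585 matched a symbol. Depth was 61476938 to 102385337 counts over 36 libraries.

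The filterByExpr function of edgeR 4.0.16 (R 4.3.3) kept 18176 genes. Libraries were scaled by TMM (factors 0.938 to 1.08), 12 group means were fitted to 36 libraries with robust dispersions (biological coefficient of variation 0.0695), and contrasts were tested by the two-sided quasi-likelihood F test with Benjamini-Hochberg adjustment over all genes and a threshold of 0.05. Every adjusted p from edgeR in the text is of this kind. The SE is the absolute log2 fold change divided by the square root of F, and can be too small where a group has few counts. Lists are described by counts and medians, with no set test. Gene coordinates come from the GENCODE annotation of GRCm38, and the printed windows before gene starts from RefSeq's GRCm38 tables.

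The comparison, the gene lists and the members were chosen with earlier results of these data known. Named were 17 set genes, the 12 largest differences per direction (mean of at least 2 CPM, groups not overlapping, predicted genes left out), the 6 largest changes since day 0 per direction and up to 6 members per list by smallest p. Nos2, Isg15, Ifit3, Oas1a, Oas3, Ifi27l2a, Bst2, Irf7, Krt10, Krt13, Isg20, Tff3, Cyp4a12b and the neighbourhoods were added after values were seen. Some genes are not reported here.

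On simulated data with 3 libraries per group, the test of day 11 recovered 29.8% of the genes changed 1.25-fold (47 genes), 70.5% of those changed 1.5-fold (44), 78.7% of those changed 2-fold (47) and 97.9% of those changed 4-fold (47). Of 17060 genes tested there, 11 that were unchanged were called. These values describe the simulated libraries only, and whether they hold for the real libraries was not tested. Other settings were RLE and total-count scaling, no filter, a stricter filter, the compared groups alone, DESeq2 1.42.0, a replicate block and leaving out each library.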

Additional observations from a re-analysis of the deposited data

Results flagged for a closer look

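The difference between FE255del and WT changed from day 0 to day 11, by the test of the change itself, for 2599 genes. Counting only genes whose day 11 groups did not overlap and whose average over those 6 libraries reached 2 CPM, the largest increases in this difference, on the log2 scale, were those of Adcyap1r1 (5.66), Tff2 (4.81), Mme (4.70), Vnn3 (4.09), Hnf4a (4.07) and Cnr1 (3.84). By the same rule the largest decreases were those of Scgb1a1 (-7.70), Tff1 (-5.07), Cldn2 (-4.36), Krt83 (-3.31), Pyy (-3.29) and Cldn10 (-2.44). The change of Tff2, at an adjusted p of 0.0483, was lost under 12 of 19 settings, with adjusted p from 0.00201 to 0.249. That of Tff1 was lost without the day 0 FE255del replicate 2, at an adjusted p of 0.127, the highest of its range from 3.45e-12. The other 10 passed under every setting run. At day 0, Adcyap1r1, Tff2, Hnf4a, Cnr1, Tff1, Cldn2 and Mme had few counts (for example 42 in WT and 4 in FE255del for Adcyap1r1, over 3 libraries each), so the size of their change is imprecise.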

How the results depend on the processing

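With the compared groups alone in the fit, the day 11 counts moved from 1773 and 1440 genes to 896 higher and 810 lower. Of the 3213 calls 1685 were kept, all in the same direction. Fewer libraries and genes entered each such fit. At day 0 the same restriction gave 3104 higher and 2735 lower genes in place of 2846 and 2032. At day 1 it gave 3835 and 3660 in place of 3956 and 3617. Only the day 11 comparison lost calls on this scale, and the reason was not tested. The edgeR adjusted p values of the main fit rest on the spread shared by all 36 libraries. Under the other settings run on all libraries, each count stayed within 1.5 times. Leaving out 1 library gave 1269 to 1922 higher and 1189 to 1361 lower at day 11, 1994 to 2806 and 1448 to 1860 at day 0, 3395 to 3854 and 3250 to 3451 at day 1, and 987 to 1235 and 1020 to 1461 for the change since day 0. The share of higher genes among day 11 calls was 55.2%, and 47.0% with total-count scaling. Replicate numbers were not used as pairs in the main fit. Deviations of same-numbered libraries correlated at 0.163, -0.112 and 0.150, and not every library correlated best with its own number. With 3 libraries per group these values cannot settle whether the samples were paired. The fit with a replicate block gave 1830 higher and 1474 lower genes. Directions turned only for genes that did not pass, and the cause was not tested. Krt5 went to -0.0046 with total-count scaling. On leaving out 1 library, values ran from -0.0596 to 0.1113 for Krt5 (-0.0008 without WT replicate 2), from -0.0260 to 0.1318 for Trp63, from -0.0929 to 0.0389 for Mki67, from -0.0706 to 0.0079 for Cdh1, from -0.1461 to 0.0020 for Fkbp5, from -0.1939 to 0.0789 for Egfl7, from -0.0931 to 0.3177 for Pecam1, from -0.1463 to 0.5104 for Clca2 and from -3.5265 to 2.6337 for Tubb3. Over all settings of the named genes, 3285 results kept their side of the threshold, 203 lost it and 27 gained it. Depth limits genes under about 0.1 CPM, where a library holds few counts.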
